A study of Mus musculus with 9 samples.

Results

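The genes described here are 45 genes of motile cilia and of the multiciliated cells that carry them, in the lungs of mice. They were listed by name from the known parts of the cilium, with earlier results of these data known, and no measured value enters the rule: dynein heavy chains and other dynein arm subunits, radial spoke and central apparatus proteins, ruler and nexin-link proteins, tektins, the regulators of the ciliated cell programme, and further genes of ciliated cells. All 45 were found among the 21930 genes of the deposited table, and all 45 were among the 15636 genes with enough reads to test.

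The study measured RNA of whole lung in 3 groups of 3 libraries, all from C57BL/6 mice labelled male and 6 to 8 weeks old. Control mice received sterile saline into the trachea. The LPS group received 2 mg/kg of lipopolysaccharide (LPS), a bacterial cell wall component that inflames the lung, by the same route. The LPS+RSBD group received the same LPS and was then dosed by mouth, from the next day, with Renshen Baidu Powder (RSBD), a decoction of several medicinal plants. Gavage, with RSBD or with vehicle, was daily over 5 days, and tissue was collected on day 5 counted from LPS. The dose of RSBD, whether control mice were gavaged with vehicle, and whether each library is 1 mouse are not given in the labels, so a p-value measures the spread between these libraries.

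Library totals ran from 26959662 to 36113905 counts. Levels are given as counts per 1000000 (CPM) after TMM scaling, and differences as log2 fold changes with their standard errors (SE); a gene passed when its p-value from edgeR's quasi-likelihood test, adjusted over all 15636 genes by the Benjamini-Hochberg method, was below 0.05. Of the 15636 genes, 17.4% passed between LPS and control, 1374 higher and 1349 lower; limma on log2(TPM + 1) called 1996 genes, 1300 of them lower. Reads of chromosome Y numbered 6 to 9 in each control library and 7511 to 10918 in each of the other 6 libraries, although all are labelled male. In the comparisons with control, the presence of Y reads and the treatment cannot be told apart. The tissue label was met by high levels of alveolar genes: 8 alveolar type 2 markers summed to between 17250.3 and 25599.5 CPM in every library.

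A motile cilium beats because dynein motors, set in outer and inner rows of arms along the paired microtubules of its axoneme, make neighbouring doublets slide. Radial spokes and a central apparatus time that sliding, the nexin links of the dynein regulatory complex hold the doublets together, and tektins with other inner proteins stiffen the doublet wall from within. Multiciliated cells line the conducting airways, where their beat clears mucus and trapped particles. Their genes are switched on by Mcidas, Foxj1 and the RFX factors. RFX factors bind the X-box, a short inverted repeat near the start of many cilium genes.

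The X-box was searched for in the promoters of the 45 genes, since 2 RFX factors are among them. RefSeq promoter sequences of GRCm38.p6, from 250 bases before to 50 bases after the start, were at hand for 38 of the 45 genes, as 41 sequences. The motif searched was the arm GTTNCCA followed directly by its reverse complement TGGNAAC, a box that reads the same on both strands, with up to 2 mismatches over its defined letters. It was found in 13 of the 41 sequences, 31.7%, and in 3.5% of all 32851 promoter sequences of that length. With at most 1 mismatch the shares were 4.88% and 0.977%. No member held an exact match, against 0.128% of all promoters. The forkhead motif TGTTTAC, searched on both strands as the letters bound by Foxj1's protein family, was in 3 of the 41, 7.32%, against 3.65% of all. A match is a description of letters and not a measured binding site. All 13 matches are shown, so that the letters can be compared between genes, each 5′ to 3′ on the strand of its gene, with the matched letters in capitals.
Cfap44: ggagggacGTTGCTATGGCAACcgcagtaa
Zmynd10: gctccctcGTTTCCATGGCGACgacgactc
Hydin: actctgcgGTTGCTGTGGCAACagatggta
Drc1: gtgactgcTTTCCCTTGGCAACggcttgtt
Tekt1: tccgtccgGTTGCCATAGAGACcgcagttt
Dnali1: gaggagggGTTTCCATGGTGATcgcaaaca
Cfap126: tgttcaagGTATCCATGGCTACttctcagt
Spag16: ggcaacgcGTTGCCGTAGTAACtgcggacg
Spag17: gccactctGCTACTATGGAAACggggaagc
Sntn: attattcaGTTGCCATGGAATGaatgacaa
Cfap52: gtgcgccaGTTACCATGACGACcaggagac
Rsph9: ggctcaggGTCTCCATGGAGACagcttcta
Spag6l: tgctgtcgGTTGCCCTGGAGACgc
The matches of Cfap44 (chr16:44394764-44394793, plus strand) and Zmynd10 (chr9:107547296-107547325, plus strand) have 1 mismatch and the rest 2. Of the 13 matches, 9 lie within 50 bases of the start. The stretch of the Cfap44 promoter that holds its match, chr16:44394699-44394798 on the plus strand, shows how close the box sits to the start, which follows the last base of the line.
Cfap44 promoter: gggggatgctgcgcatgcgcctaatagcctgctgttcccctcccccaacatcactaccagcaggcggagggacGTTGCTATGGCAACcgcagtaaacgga

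In lungs given LPS, 24 of the 45 genes fell against control and none rose. Across all genes tested, 8.63% were called lower and 8.79% higher by the same rule. An unadjusted p below 0.05 was reached by 33 of the 45, against 34.5% of all genes. The estimate was below 0 for 44 of the 45, with a median log2 fold change of -0.66 and a range from -1.09 to 0.07, while the median over all genes tested was -0.0065. The LPS libraries all lay below the control libraries for 29 of the 45, where 19.5% of all genes tested were apart in that direction. By structure, the drop passed the test for 3 of 3 outer arm genes, 7 of 9 inner arm genes, 2 of 2 inner arm tether genes, 3 of 5 regulator and assembly genes, 2 of 4 ruler and nexin-link genes, 3 of 7 central apparatus genes, 3 of 8 other ciliated cell genes, 1 of 3 radial spoke genes and 0 of 4 tektins and inner microtubule proteins. As the RNA is of whole lung, fewer ciliated cells and less cilium RNA per cell cannot be told apart.

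The number of calls rests on few libraries and on the length of the genes. Without control 2, control 3 or LPS 2 no member passed (the highest edgeR adjusted p among the 24 was then 0.109, 0.158 and 0.154). Without LPS 3 there were 2 calls, without LPS 1 there were 7 and without LPS+RSBD 1 there were 14. Of all genes, 2.99%, 3.09% and 2.31% were called lower without control 2, control 3 and LPS 2. Without LPS 3, LPS 1 and LPS+RSBD 1 the shares were 4.02%, 8.79% and 6.69%. The sign of all 24 was negative in each of the 17 alternatives run. So was that of the other members, except Mcidas and Cfap126 in some and Dnah7a, which stayed above 0 in 14. The median of the 45 lay between -0.85 and -0.52 in all 17. A correction for coding length, added after seeing the data and described below, left 5 calls (Rfx2, Drc1, Rfx3, Sntn and Ak7) and a median of -0.58. None of these 5 is an outer arm, inner arm or inner arm tether gene. With that correction 7.18% of all genes were called lower. DESeq2 called 30 members, among them all 24, and called 11.7% of all genes lower.

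**Figure D1:**
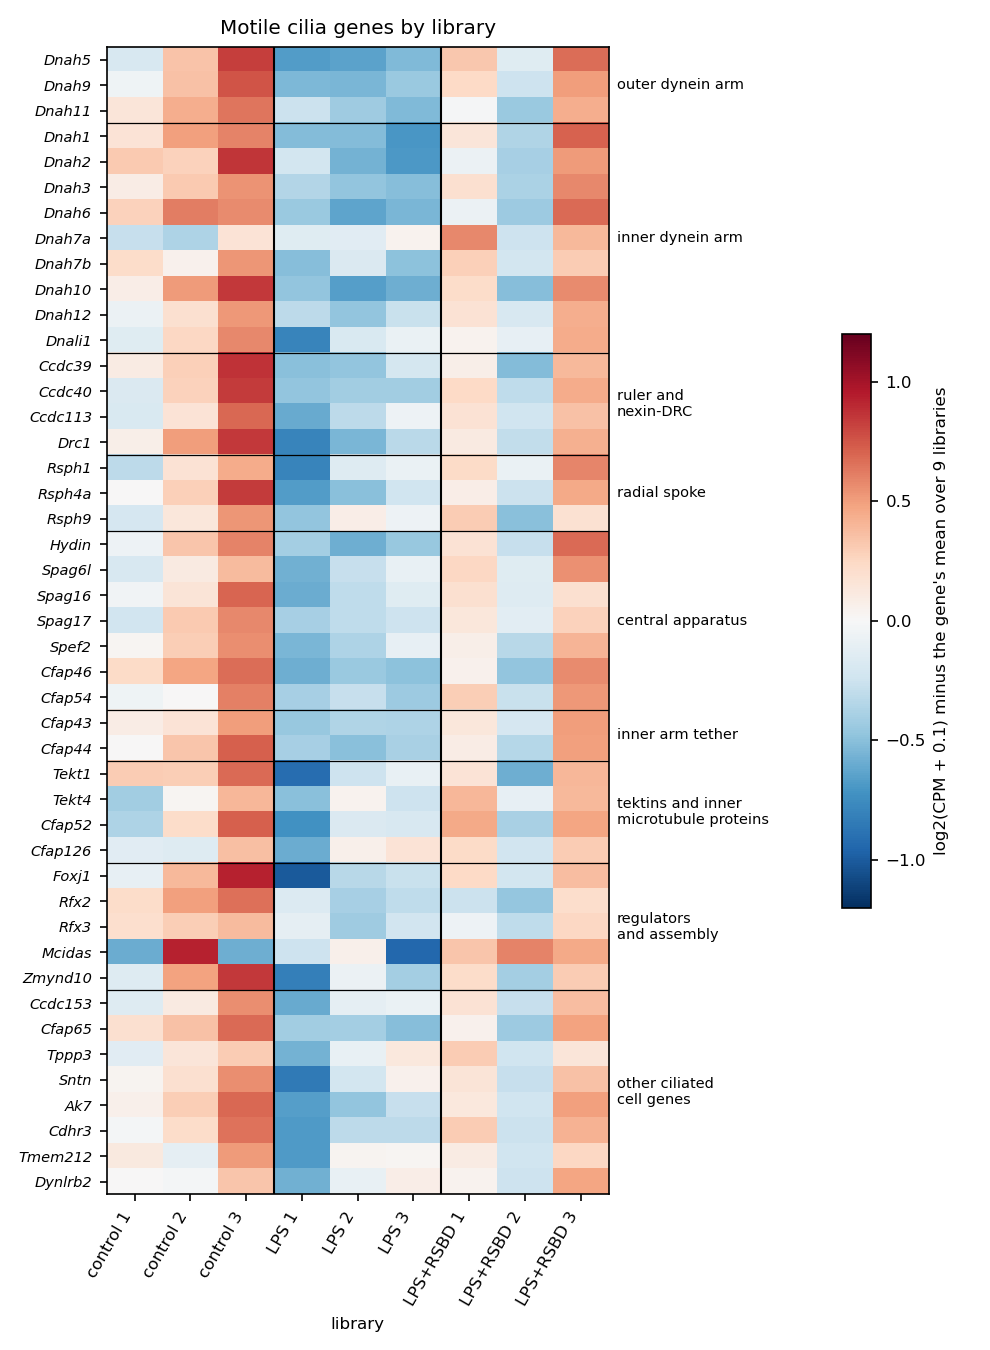
Colour shows log2(CPM + 0.1) minus the gene's mean over the 9 libraries, for each of the 45 genes (vertical) in each library (horizontal), with structural classes separated by lines. The 3 LPS columns are mostly below the mean, control 3 and LPS+RSBD 3 are mostly above it, and LPS+RSBD 2 resembles the LPS columns.

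The outer dynein arm carries the motors that set beat frequency. Dnah5 (ENSMUSG00000022262, chr15:28203752-28472052, plus strand), an outer arm heavy chain whose loss causes primary ciliary dyskinesia, stood at 88.1, 128 and 179 CPM in control, 63.3, 64.6 and 69.6 CPM with LPS, and 126, 91.0 and 160 CPM with LPS+RSBD. The LPS libraries were close together and below every other library. Dnah5 fell by 1.00 ± 0.26 (SE) on the log2 scale with LPS, with an edgeR adjusted p of 0.0327. Dnah9, the heavy chain of the distal outer arm, stood at 52.9, 70.0 and 92.5 CPM in control, 37.7, 37.3 and 40.2 CPM with LPS, and 64.5, 46.0 and 77.4 CPM with LPS+RSBD, and fell by 0.90 ± 0.22 with LPS (edgeR adjusted p = 0.0267). Dnah11, the proximal outer arm heavy chain, stood at 44.7, 54.5 and 62.8 CPM in control, 33.8, 30.01 and 27.9 CPM with LPS, and 40.005, 29.6 and 54.3 CPM with LPS+RSBD, and fell by 0.82 ± 0.21 (edgeR adjusted p = 0.0283). For Dnah9 the LPS libraries were below all 6 others, and for Dnah11 they overlapped LPS+RSBD only.

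The inner arms shape the bend of the beat and use a different heavy chain at each position. Dnah6, the inner arm chain with the highest level in CPM, stood at 185, 234 and 226 CPM in control, 112, 98.1 and 104 CPM with LPS, and 145, 113 and 245 CPM with LPS+RSBD. Dnah10 (chr5:124725085-124834308, plus strand), a heavy chain of the inner arm I1 complex, stood at 89.1, 120.0 and 152 CPM in control, 60.5, 53.3 and 56.0 CPM with LPS, and 97.7, 59.0 and 125 CPM with LPS+RSBD. In both genes the LPS libraries lay apart from control. Dnah6 fell by 1.03 ± 0.24 (edgeR adjusted p = 0.0249) and Dnah10 by 1.09 ± 0.26 (edgeR adjusted p = 0.0270), the lowest estimate of the 45. Dnah1, another inner arm heavy chain, stood at 32.5, 40.8 and 44.1 CPM in control, 20.2, 20.3 and 17.8 CPM with LPS, and 32.1, 22.6 and 47.5 CPM with LPS+RSBD, and fell by 1.01 ± 0.24 (edgeR adjusted p = 0.0230). Dnah2, the partner of Dnah10 in the I1 complex, stood at 52.9, 51.5 and 77.5 CPM in control, 36.4, 28.6 and 26.5 CPM with LPS, and 40.5, 32.2 and 60.6 CPM with LPS+RSBD, and fell by 0.99 ± 0.25 (edgeR adjusted p = 0.0293). For Dnah1 and Dnah2 every LPS library was again below every control library. Dnah3, Dnah7b and Dnah12 also fell, by 0.77, 0.66 and 0.58. Dnali1, an inner arm light chain and a short gene, stood at 29.3, 38.3 and 48.1 CPM in control, 18.6, 28.4 and 30.5 CPM with LPS, and 33.3, 30.2 and 44.2 CPM with LPS+RSBD. Its control and LPS libraries overlapped, and its estimate of -0.58 ± 0.23 did not pass (edgeR adjusted p = 0.113).

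With the coding length correction described below, no dynein heavy chain passed. Without that correction, 10 of the 11 fell, where 8.63% of all genes tested were called lower. Dnah7a was the exception, with 9.15, 8.56 and 12.5 CPM in control, 10.03, 10.1 and 11.4 CPM with LPS, and 16.6, 9.33 and 14.6 CPM with LPS+RSBD, and an estimate of 0.07 ± 0.22 (edgeR adjusted p = 0.863). Its direction differed between counts and TPM: the deposited TPM of Dnah7a were 9.92, 6.16 and 13.2 in control and 3.63, 3.59 and 5.61 with LPS. Limma on log2(TPM + 1) and on log2(TPM + 0.1) called it lower, where 8.31% and 8.25% of all genes were. A fixed gene length would scale all libraries alike. Why counts and TPM part for this gene was not tested. Both Dnah7a values are uncertain, because 19.1% of its 100-base stretches also occur in another gene, mostly its near copy Dnah7c. For Dnah7b that share was 14.3%.

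The ruler proteins set the spacing at which dynein arms attach, and the nexin-dynein regulatory complex links neighbouring doublets. Drc1 (ENSMUSG00000073102, chr5:30281388-30366695, plus strand), a core subunit of that complex whose promoter match is shown above, stood at 29.6, 39.96 and 51.0 CPM in control, 16.3, 19.3 and 22.5 CPM with LPS, and 30.5, 23.1 and 38.0 CPM with LPS+RSBD. The LPS libraries were below all 6 others. Drc1 fell by 1.05 ± 0.23 with the smallest edgeR adjusted p of the 45, 0.0176. Ccdc39, a ruler protein, stood at 76.1, 86.9 and 129 CPM in control, 50.1, 51.1 and 61.3 CPM with LPS, and 74.6, 49.5 and 93.1 CPM with LPS+RSBD, and fell by 0.85 ± 0.25 (edgeR adjusted p = 0.0464). Its ruler partner Ccdc40 had an estimate of -0.81 that did not pass (edgeR adjusted p = 0.054). Ccdc113, of the same class, had an estimate of -0.58 (edgeR adjusted p = 0.118).

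Among radial spoke genes, the spoke head gene Rsph4a fell by 0.88 ± 0.24 (edgeR adjusted p = 0.0379). Rsph1, also of the spoke head and the spoke gene with the highest TPM, stood at 23.6, 33.1 and 39.96 CPM in control, 16.9, 26.3 and 27.8 CPM with LPS, and 34.5, 27.7 and 44.2 CPM with LPS+RSBD. Control 1 lay below 2 of the LPS libraries, and the estimate of -0.44 ± 0.25 did not pass (edgeR adjusted p = 0.241). Rsph9 had an estimate of -0.32, with an edgeR adjusted p of 0.394.

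In the central apparatus, Cfap46, a protein of the projections on the central pair, stood at 50.5, 60.0 and 68.9 CPM in control, 28.8, 31.6 and 30.7 CPM with LPS, and 44.6, 31.1 and 63.8 CPM with LPS+RSBD. It fell by 0.98 ± 0.23 (edgeR adjusted p = 0.0223), with every LPS library below every control library. Hydin, a giant projection protein, fell by 0.80 (edgeR adjusted p = 0.0466), and Spag16 by 0.64 (edgeR adjusted p = 0.0492). Spag6l, which had the highest TPM of this class, stood at 21.3, 26.2 and 31.6 CPM in control, 16.3, 20.1 and 22.8 CPM with LPS, and 28.8, 21.9 and 35.6 CPM with LPS+RSBD. Its groups overlapped at control 1 and LPS 3, and its estimate of -0.42 ± 0.20 did not pass (edgeR adjusted p = 0.175). Spag17, Spef2 and Cfap54 had estimates of -0.58, -0.64 and -0.59 and did not pass either.

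Cfap43 and Cfap44 form the tether that holds the head of an inner arm dynein to its doublet. Cfap43 stood at 90.3, 95.2 and 120 CPM in control, 61.7, 65.9 and 65.7 CPM with LPS, and 93.0, 73.9 and 120 CPM with LPS+RSBD. Cfap44 stood at 98.5, 123 and 162 CPM in control, 74.1, 69.0 and 74.6 CPM with LPS, and 104, 77.4 and 138 CPM with LPS+RSBD. For both tether genes the LPS libraries were below all 6 others. Cfap43 fell by 0.66 ± 0.17 (edgeR adjusted p = 0.0278) and Cfap44 by 0.81 ± 0.22 (edgeR adjusted p = 0.0364). Cfap43 overlaps Itprip on its own strand, so some of its counts may belong to that gene.

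None of the tektins and inner microtubule proteins passed with LPS by edgeR's test, although 1 had an unadjusted p below 0.05 and DESeq2 called that gene, Tekt1. Cfap126, a protein bound to the doublet wall and the one of this class with the highest TPM, stood at 31.1, 30.7 and 44.1 CPM in control, 22.7, 35.7 and 38.5 CPM with LPS, and 40.4, 29.3 and 42.3 CPM with LPS+RSBD. The groups were intermixed, and the estimate was -0.13 ± 0.23 (95% interval -0.64 to 0.38). Tekt1, Cfap52 and Tekt4 had estimates of -0.81, -0.60 and -0.26.

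Foxj1 (ENSMUSG00000034227, chr11:116330704-116335399, minus strand), the transcription factor that commits a cell to motile cilia, stood at 104, 145 and 210 CPM in control, 55.2, 88.1 and 92.1 CPM with LPS, and 130, 95.1 and 143 CPM with LPS+RSBD. The LPS libraries lay below all 6 others, and Foxj1 fell by 0.96 ± 0.28 (edgeR adjusted p = 0.0453). Rfx2 (chr17:56775897-56831013, minus strand), a factor that binds the X-box, stood at 31.4, 38.0 and 42.8 CPM in control, 24.2, 20.5 and 21.9 CPM with LPS, and 22.6, 19.6 and 31.3 CPM with LPS+RSBD. Its control libraries were above all 6 others, only just so for control 1 and LPS+RSBD 3, and it fell by 0.75 ± 0.18 with LPS (edgeR adjusted p = 0.0209). Rfx3, which binds the same box and also serves primary cilia, stood at 44.5, 47.4 and 50.5 CPM in control, 35.9, 28.7 and 33.0 CPM with LPS, and 37.1, 31.3 and 46.1 CPM with LPS+RSBD, and fell by 0.54 ± 0.14 (edgeR adjusted p = 0.0294). Mcidas, which starts centriole amplification upstream of Foxj1, was close to the limit of detection, with 6, 25 and 6 counts in control, 8, 12 and 4 counts with LPS and 18, 19 and 15 counts with LPS+RSBD. Its groups were intermixed between control and LPS, and its estimate of -0.55 ± 0.64 left a 95% interval from -1.98 to 0.88. Zmynd10, a factor for the assembly of dynein arms in the cytoplasm, had an estimate of -0.86 (edgeR adjusted p = 0.069).

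Among the other ciliated cell genes, Cfap65 (chr1:74902071-74935599, minus strand), known for its part in the flagellum of sperm, stood at 172, 192 and 241 CPM in control, 113, 113 and 105 CPM with LPS, and 156, 111 and 210 CPM with LPS+RSBD. It fell by 0.87 ± 0.21 (edgeR adjusted p = 0.0245), with every LPS library below every control library. Ak7, an adenylate kinase of cilia, stood at 57.8, 68.0 and 89.5 CPM in control, 35.1, 39.9 and 45.7 CPM with LPS, and 60.7, 47.1 and 78.0 CPM with LPS+RSBD. It fell by 0.83 ± 0.21 (edgeR adjusted p = 0.0275), and its LPS libraries were below all 6 others. Cdhr3, a cadherin of ciliated cells, fell by 0.74 (edgeR adjusted p = 0.0440). Tppp3, a tubulin-binding protein used as a marker of ciliated cells, stood at 223, 272 and 303 CPM in control, 166, 231 and 268 CPM with LPS, and 303, 208 and 271 CPM with LPS+RSBD. Its groups overlapped, and its estimate of -0.26 ± 0.20 did not pass (edgeR adjusted p = 0.370). Ccdc153, Sntn, Tmem212 and Dynlrb2 also did not pass, with estimates from -0.57 to -0.29.

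**Figure D2:**
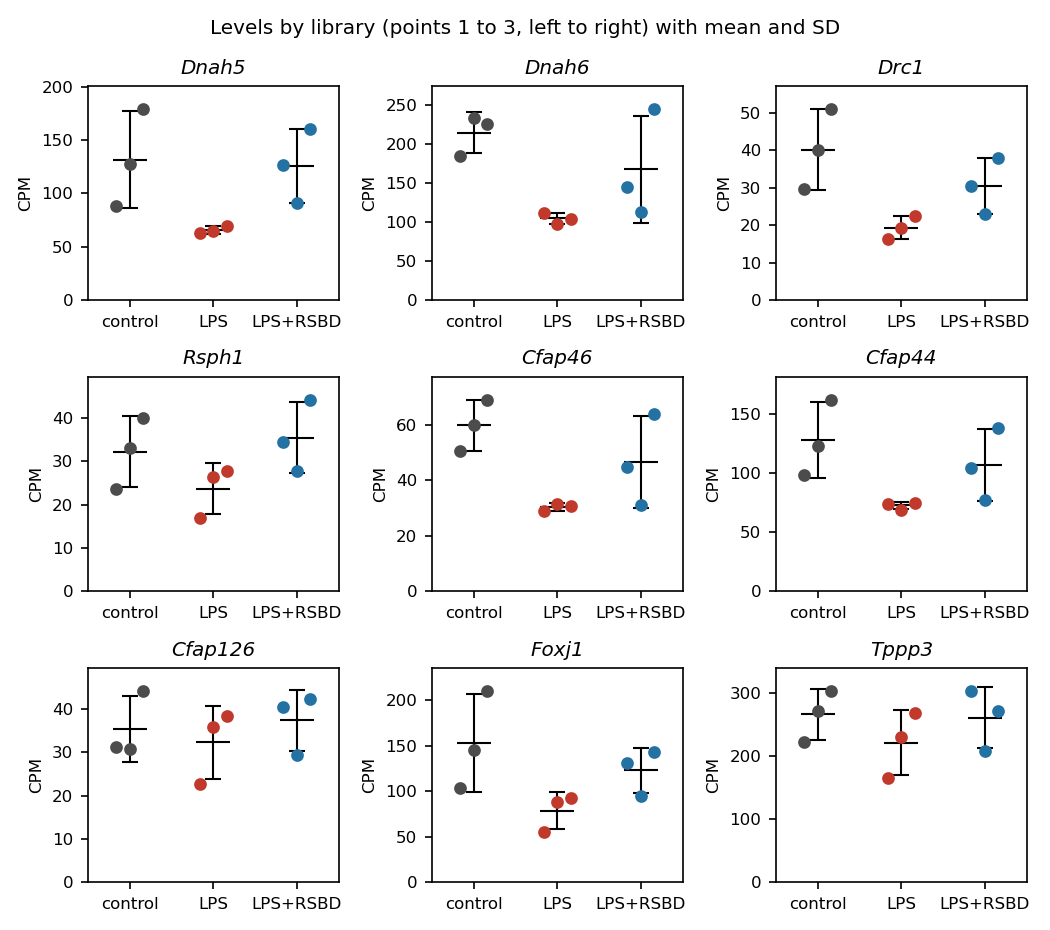
Points are CPM in each of the 3 libraries of a group (replicates 1 to 3 from left to right), with the group mean as a bar and the SD as whiskers, for 9 genes of different structural classes. LPS points lie below all control points for Dnah5, Dnah6, Drc1, Cfap46, Cfap44 and Foxj1, and overlap them for Rsph1, Cfap126 and Tppp3.

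Levels between genes were compared per length, in the deposited TPM. Averaged over the 9 libraries, Tppp3 was highest with 381 TPM, followed by Ccdc153 with 207, Dynlrb2 with 113, Tmem212 with 99.2, Foxj1 with 79.1 and Cfap126 with 76.8 TPM. Dynein heavy chains lay between 2.97 TPM for Dnah7b and 22.7 TPM for Dnah6, and Mcidas was lowest with 0.293 TPM. Tppp3, Ccdc153, Dynlrb2, Tmem212 and Cfap126, which are 5 of the 6 highest, did not pass between LPS and control. The summed TPM of the 45 genes was 1605, 1999 and 2542 in control, 1195, 1340 and 1421 with LPS, and 1869, 1336 and 2042 with LPS+RSBD. By this sum the LPS libraries were below all control libraries, and LPS+RSBD 2 was within the LPS range.

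The 45 genes moved together from library to library, also inside a group. Over the 9 libraries the mean correlation between pairs of members was 0.79, and 0.74 after the group means were removed, against 0.0017 and 0.0013 over pairs of all genes tested; the points share library and scaling. Control 3 was the highest control library for 43 of the 45 genes and control 1 the lowest for 38. LPS+RSBD 3 was highest in its group for 40 and LPS+RSBD 2 lowest for 44. With LPS the order was less uniform, with LPS 1 lowest for 30 genes. Each member was also compared with the mean profile of all 45, of which it is itself a part, which raises r. Ak7 and Cdhr3 followed that profile most closely (r = 0.99 over 9 libraries for both). Mcidas (0.20), Dnah7a (0.46) and Cfap126 (0.70) followed it least, and 32 of the 45 had an r of at least 0.9.

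The members differed by the length of their coding sequence. The 13 with a coding sequence of at least 9000 bases, 11 heavy chains with Hydin and Cfap54, had a median of -0.82 between LPS and control, and 11 of them were called lower. The 15 under 1500 bases had a median of -0.44, and 1 of them, Foxj1, was called. Spearman's rho between length and fold change was -0.62 over the 45 genes, and the same direction held over all 15598 tested genes with a known length (rho -0.22). The 127 genes of at least 9000 bases outside all cilium lists had a median of -0.30, with 32 called lower and 4 higher, and 8504 short genes outside these lists had a median of 0.08.

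Long genes lay above short genes in control and LPS 1, and below them in LPS 2 and LPS 3. For those 127 long genes, the median of log2 CPM after centring each gene was 0.09, 0.20 and 0.13 in control, 0.11 in LPS 1, -0.28 in LPS 2, -0.25 in LPS 3, and -0.03, 0.03 and 0.02 with LPS+RSBD. For the 8504 short genes it was -0.02, -0.05 and -0.04 in control, -0.06 in LPS 1, 0.08 in LPS 2 and 0.08 in LPS 3. In the LPS libraries the same order was seen among the cilium genes. In LPS 1 the mean centred value was -0.40 for the 13 long and -0.67 for the 15 short members, while it was -0.47 and -0.10 in LPS 2 and -0.47 and -0.13 in LPS 3. For the short members the control values were -0.14, 0.20 and 0.47, so LPS 2 and LPS 3 lay just above control 1 and below control 2 and control 3. For the long members all 3 LPS libraries lay below the controls, which were at 0.045, 0.27 and 0.62. When a smooth curve of log2 CPM on coding length was removed from each library, the medians were -0.49 for long and -0.57 for short members, 44 of the 45 estimates were below 0, 30 had an unadjusted p below 0.05, and 5 passed. Of those 5, Rfx2, Drc1, Rfx3 and Ak7 are among the 24 and Sntn is not. What sets the length pattern was not tested.

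**Figure D3:**
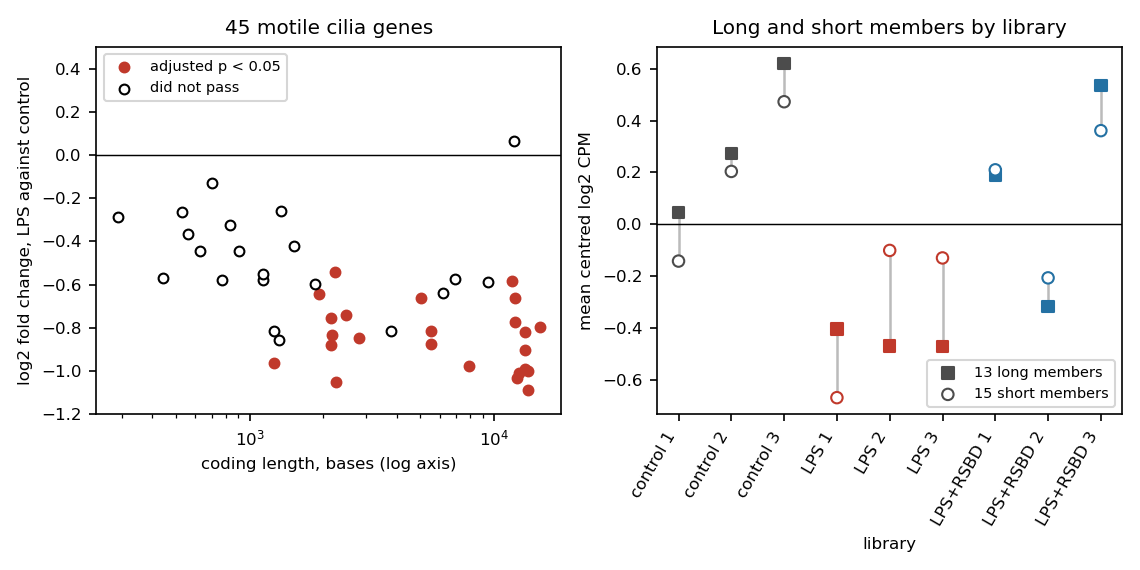
Left, the log2 fold change of each of the 45 genes between LPS and control against its coding length in bases (log axis), filled where the adjusted p was below 0.05. Right, the mean centred log2 CPM of the 13 long (squares) and 15 short (circles) members in each library; short members exceed long ones by 0.37 in LPS 2 and 0.34 in LPS 3 and are below them in LPS 1.

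With RSBD after LPS, the estimate of all 45 genes was above that of LPS with vehicle, but none passed. By edgeR's test no gene of the whole table passed in this comparison (0%), against 159 genes by DESeq2. The median log2 fold change of the 45 was 0.53, with a range from 0.14 to 0.96, and the median over all genes was 0.01. Of the 45, 23 had an unadjusted p below 0.05, against 9.42% of all genes, and the edgeR adjusted p-values ran from 0.393 to 0.883. The LPS+RSBD libraries all lay above the LPS libraries for 16 members, against 7.18% of all genes. This comparison shares the LPS libraries with the one above, so a low LPS value moves both.

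The outer arm gene Dnah5, with libraries as given above, had the smallest adjusted p, with an estimate of 0.93 ± 0.26 (95% interval 0.35 to 1.52, edgeR adjusted p = 0.393); DESeq2 called it, alone of the 45, with an adjusted p of 0.0273. Dnah9 and Dnah1 had estimates of 0.71 ± 0.22 and 0.81 ± 0.24. The estimate was 0.65 ± 0.28 for Foxj1, 0.14 ± 0.18 for Rfx2 (95% interval -0.25 to 0.53) and 0.23 ± 0.14 for Rfx3. Mcidas had the highest estimate of all 45, 0.96, with a 95% interval from -0.44 to 2.37. The LPS+RSBD libraries were uneven: LPS+RSBD 2 lay near the LPS libraries for most genes, and LPS+RSBD 3 was highest in its group for 40 of the 45. The mean centred log2 CPM of the 45 genes was -0.53, -0.32 and -0.29 in the LPS libraries and 0.17, -0.28 and 0.43 in the LPS+RSBD libraries. Long members had a median estimate of 0.63 and short members of 0.42, and after the length correction the medians were 0.45 and 0.43.

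**Figure D4:**
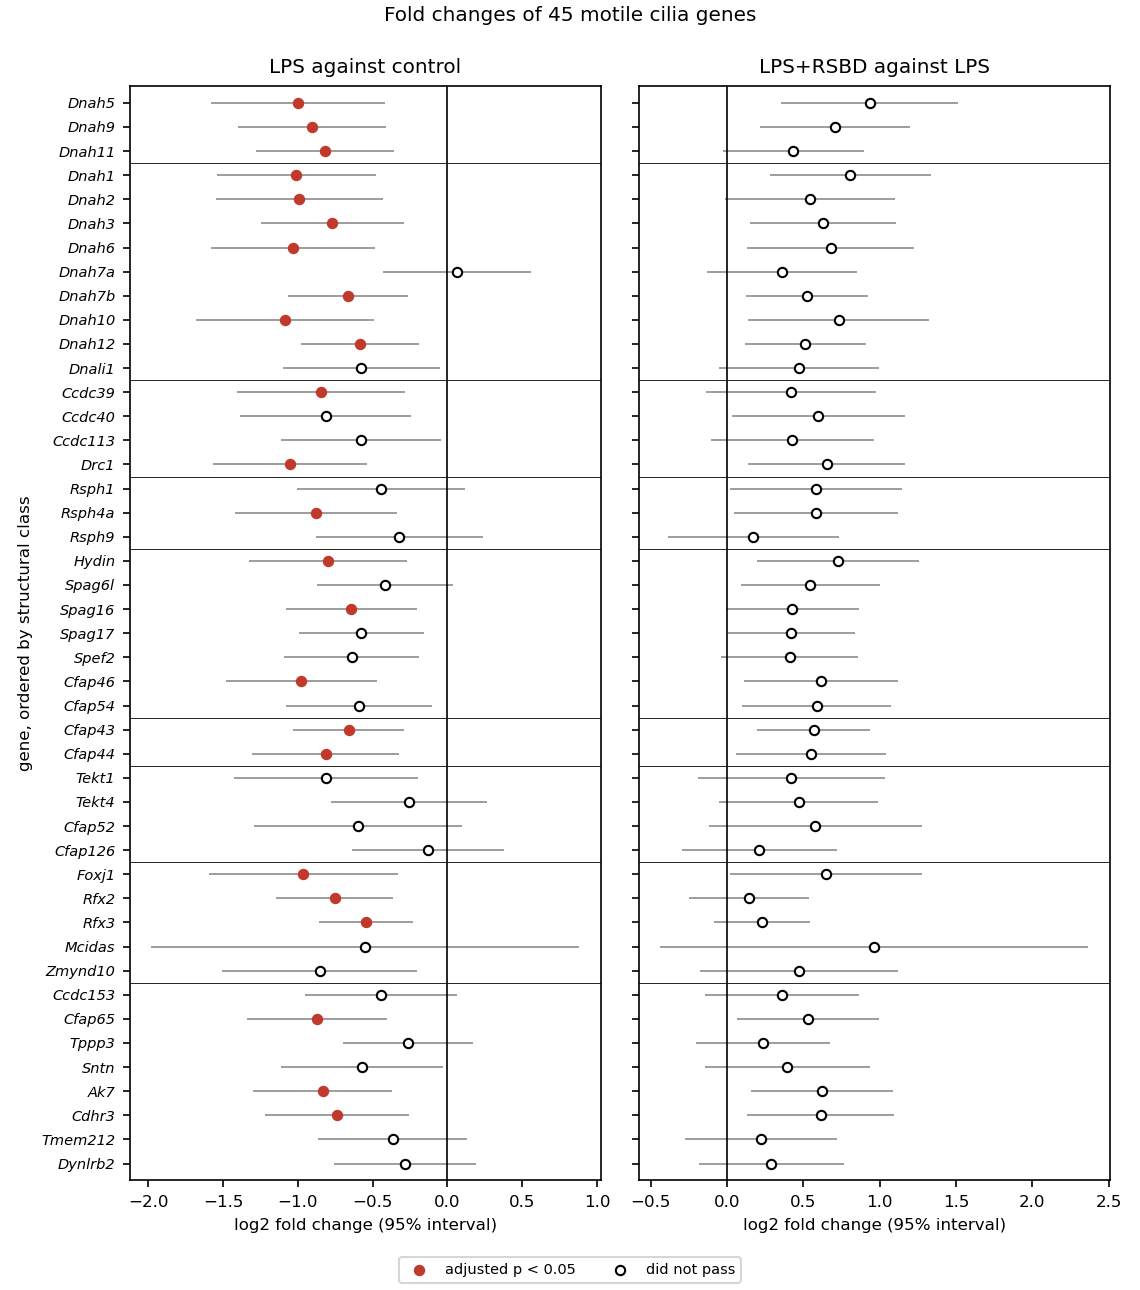
Log2 fold change (point) with its 95% interval (line) for each of the 45 genes, LPS against control on the left and LPS+RSBD against LPS on the right; filled points had an adjusted p below 0.05. On the left 44 of 45 points are below 0 and 24 are filled, and on the right all 45 are above 0 and none is filled.

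Against control, no member passed with LPS+RSBD by edgeR's test, where 3.7% of all genes did; 2 members had an unadjusted p below 0.05, against 22.7% of all genes, and DESeq2 called Rfx2. The median of the 45 was -0.16, with 38 estimates below 0 and 7 above. The LPS+RSBD mean lay between the LPS and control means for those 38 genes and above the control mean for the other 7. Rfx2 was the gene farthest below control, with an estimate of -0.61 ± 0.18 (edgeR adjusted p = 0.0804; DESeq2 adjusted p = 0.0198). It was the only 1 of the 45 with all LPS+RSBD libraries below all control libraries, a pattern that 15% of all genes tested showed. Without LPS+RSBD 3, both Rfx2 and Dnah6 passed as lower, where 3.56% of all genes passed and 1.42% were called lower.

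Fold changes were also set beside the promoter matches. The 13 genes with a match had a median of -0.60 between LPS and control, and 4 of them (Cfap44, Drc1, Hydin and Spag16) fell. The 25 genes with a promoter sequence and no match had a median of -0.74, and 16 fell, where 8.63% of all genes tested were called lower. Between LPS+RSBD and LPS the medians were 0.47 and 0.53. Most of the long heavy chains are in the set without a match. With the coding length correction, the genes called lower with LPS were Drc1 and Sntn in the set with a match. In the set without a match they were Rfx2, Rfx3 and Ak7. That correction called 7.18% of all genes lower. No test between the sets was made.

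Cilium genes outside the 45 were counted in 6 further lists. Of all genes tested, 8.63% were called lower with LPS and 8.79% higher. Of 13 other dynein arm and docking genes, 5 fell with LPS and none rose (median -0.67), among them the outer arm light chain Dnal1 (-0.52, edgeR adjusted p = 0.0200), the docking complex gene Ccdc114 (-0.65, adjusted p = 0.0260) and Wdr78 (-0.75, adjusted p = 0.0388). Of 9 tested dynein assembly factors, 2 fell, Spag1 (-0.73) and Dnaaf3 (-0.76), and the list's median was -0.39. Of 24 other spoke, nexin and central apparatus genes, 6 fell (median -0.58), with the smallest adjusted p-values for the kinase Stk36 (-0.90), Wdr66 (-0.81) and Spata17 (-0.81). Of 14 other inner microtubule proteins, 3 fell (median -0.54): Cfap45 (-0.96), Cfap53 (-0.80) and 1700007K13Rik (-1.37).

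The last 2 lists hold genes that also serve dividing cells or primary cilia, and their difference from the other lists was not tested. Of 20 regulators of multiciliation and centriole amplification, 2 fell and 1 rose, with a median of -0.03. These counts are near the shares over all genes, 8.63% lower and 8.79% higher. Trp73, which encodes the p73 factor needed for multiciliated cells, stood at 18.6, 20.8 and 26.9 CPM in control, 8.99, 9.47 and 11.5 CPM with LPS, and 13.7, 13.7 and 17.9 CPM with LPS+RSBD. Its 3 groups did not overlap, and it fell by 1.14 ± 0.18 with LPS (edgeR adjusted p = 0.00553). Ccp110, a cap protein of centrioles, fell by 0.66, and Stil, a centriole duplication gene of dividing cells, rose by 1.24. Of 42 genes of intraflagellar transport and the primary cilium, 7 fell and 1 rose (median -0.24). The transport motor subunit Kif3a fell by 0.68 (edgeR adjusted p = 0.0049), Ift172 by 0.52 and Nphp4 by 1.15, while Ift52, named here after its value was seen, rose by 0.30. Between LPS+RSBD and LPS none of the 6 lists had a gene that passed by edgeR's test, as for all genes, and their medians lay between 0.13 and 0.47.

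Markers of other airway cell types were counted by the same rule, under which 8.63% of all genes were called lower with LPS and 8.79% higher. Of 14 club and secretory cell genes, 7 fell with LPS and none rose (median -0.49); they summed to 30628 to 42612 CPM in control, 21826 to 32659 CPM with LPS and 29100.0 to 37450.3 CPM with LPS+RSBD, and none was at 0. Of 12 neuroendocrine, tuft and ionocyte genes, 8 could be tested and 2 fell; they summed to 42.0 to 63.6 CPM in control, 26.3 to 36.4 CPM with LPS and 27.7 to 38.8 CPM with LPS+RSBD, with Il25 at 0 throughout. Of 10 cartilage genes of the larger airways, 3 could be tested and 1, Chad, fell; they summed to 25.6 to 38.9 CPM in control, 15.2 to 18.8 CPM with LPS and 23.7 to 32.9 CPM with LPS+RSBD, with Col9a1 at 0. The 7 airway basal cell genes summed to only 4.08 to 15.5 CPM in control and 2.71 to 6.04 CPM with LPS, and none of the 5 tested passed. Airway smooth muscle genes (0 of 7, median -0.46) did not pass either.

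Genes of the alveolus, of epithelium in general and of leukocytes were set against the same shares over all genes, 8.63% lower and 8.79% higher. None of 8 alveolar type 2 genes passed (median -0.11), and 1 of 8 alveolar type 1 genes, Aqp5, fell (median -0.07). Of 6 genes of epithelium in general, 1 fell, Krt8, and the 6 summed to 805 to 1005 CPM in control and 619 to 795 CPM with LPS. Of 10 leukocyte genes, 5 rose with LPS and none fell (median 0.90), and their sum was 1332 to 2321 CPM in control, 3062 to 6243 CPM with LPS and 1462 to 3709.8 CPM with LPS+RSBD. The cartilage genes thus summed lower in every LPS library than in any other library, and the leukocyte genes higher in every LPS library than in any control. The part of these other cells in the result was not tested.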

How the data were processed

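Per the labels' protocols, mRNA was enriched and strand-specific libraries were sequenced as paired reads of 150 bases. The authors deposited expected counts, all of them whole numbers, and TPM per gene, which were read as deposited. The submitters' processing notes name DESeq2 1.38.3, StringTie 2.2.0, HISAT2 2.2.1 and fastp 0.23.2, with builds mm10 and GRCm38; the counter was not given in the sources used here, nor was the annotation. Genes were filtered with filterByExpr (minimum count 10, minimum total 15) and all 9 libraries fitted in 1 model with edgeR 4.0.16 (TMM, robust quasi-likelihood F test; R 4.3.3). Adjusted p-values are Benjamini-Hochberg values over 15636 genes. The median SE was 0.225 for members and 0.150 for all genes. Alternatives used DESeq2 1.42.0, limma 3.58.1 on log2(TPM + 1 or + 0.1), other scaling and filters, a replicate block and 9 leave-one-out fits. Coding lengths and overlaps came from GENCODE M21 and promoters from RefSeq; the deposited gene coordinates of 44 members are those of GENCODE M21, and RefSeq starts can differ from them. The edgeR fit was also run on counts simulated independently for each gene, without the correlation between members or the length pattern. The outcome of that run is not used here. The members and lists were chosen with earlier results of these data known. Library values are printed for the 14 members with the smallest adjusted p, the member of highest TPM in each class and Foxj1, Rfx2, Rfx3 and Mcidas; Dnah7a was added after its values were seen. From other lists up to 3 called genes, those with the smallest adjusted p, are named.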

Additional observations from a re-analysis of the deposited data

How the results depend on the processing

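Even with depth of 26959662 counts or more, Mcidas and the basal cell genes had low levels. The part of counting error in the precision of each gene was not tested. Between LPS and control, members called lower numbered 5 with the coding length correction, which was added after seeing the data, and 0 to 27 when 1 library was left out; all genes called then ranged from 786 to 2870. Between LPS+RSBD and LPS, all genes called numbered 159 by DESeq2, 1 by limma with either pseudocount, 1 in a fit of the 2 groups alone and 0 to 4 with a library left out; members called higher were 1 by DESeq2. Between LPS+RSBD and control, all genes called numbered 1757 by DESeq2, 275 and 302 by limma with pseudocounts of 1 and 0.1, and 94 to 961 with a library left out; members called lower were 1 by DESeq2 and 0 to 2 with a library left out, and the median of the 45 reached 0.03. Libraries of equal replicate number did not deviate alike: correlations of their deviations lay between -0.21 and 0.12. Libraries of unequal number were not compared, so this does not settle whether samples were paired. A replicate block left 25 members called lower with LPS, 23 of them among the 24, where 6.06% of all genes were called lower. It left 240 genes called between LPS+RSBD and control.

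Over all 17 alternatives, the sign stayed the same for 42 of the 45 members between LPS and control, 44 between LPS+RSBD and LPS and 20 between LPS+RSBD and control. Among the 23 members chosen by the naming rule, estimates that changed sign when a library was left out spanned the following ranges. Between LPS and control they were -0.88 to 0.39 for Mcidas and -0.26 to 0.072 for Cfap126, and between LPS+RSBD and LPS -0.083 to 0.28 for Rfx2. Between LPS+RSBD and control they were -0.29 to 0.22 for Dnah5 (0.092 with the length correction), -0.055 to 0.32 for Rsph1, -0.060 to 0.29 for Spag6l, -0.025 to 0.27 for Cfap126, -0.38 to 0.028 for Dnah9, -0.29 to 0.085 for Dnali1, -0.29 to 0.065 for Cfap43, -0.15 to 0.11 for Tppp3 and -0.52 to 0.023 for Dnah1. Of the changes in sign or call, the cause was not tested beyond the loss of samples.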

Other observations

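Outside all cilium lists, the 10 genes whose log2 CPM followed the mean profile of the 45 most closely over the 9 libraries, of 14395 compared, were Cyp2s1, 1810020O05Rik, Fam166b, Ttc21a, Nhlrc4, Gm11992, Map3k19, Uhrf1bp1, Ccdc180 and Prr18, with r from 0.990 down to 0.981. Among the 100 genes most alike, 18 were members, which are part of that profile, and 17 belonged to the other cilium lists. Cyp2s1, a cytochrome P450 gene, averaged 222 CPM in control, 133 CPM with LPS and 187 CPM with LPS+RSBD, and fell by 0.74 ± 0.22 with LPS (edgeR adjusted p = 0.0447). Map3k19, a kinase gene, averaged 24.7, 12.2 and 19.8 CPM in the same order and fell by 1.01 ± 0.29 (edgeR adjusted p = 0.0431). Ccdc180 averaged 44.6, 22.9 and 37.3 CPM and fell by 0.96 ± 0.24 (edgeR adjusted p = 0.0270). These genes were chosen by their likeness on the same libraries, so their fold changes are a description.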
